A study of Mus musculus with 12 samples.

Results

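Cd34-positive adventitial fibroblasts are connective-tissue cells that lie around vessels and in the capsule of an organ. They were selected here from single-cell libraries of mouse lymph node by their own transcripts. A cell entered with at least 1000 UMIs (molecular tags that each mark 1 captured transcript), at least 500 genes and at most 10% mitochondrial UMIs. It counted as a fibroblast with at least 5 UMIs of Col1a2, Col3a1 and Dcn together and none of Ptprc, Cd79a, Cd3e, Pecam1 or Cdh5. Fibroblasts with at least 2 UMIs of Cd34, Pi16 and Dpp4 together, at most 2 of Ccl19 and at most 2 of Rgs5, Notch3 and Abcc9 were the members. The rule found 1359 members among 7955 gated fibroblasts and 45341 cells of 6 libraries, out of 95358 cells in all 12.

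The 6 libraries came from the fraction of the lymph node that bound CD45 microbeads, which the labels call immune cells, and were sorted by flow cytometry. The fibroblast gate, which asks for collagen UMIs and no Ptprc (CD45) UMI, nevertheless held 7955 of their cells. All mice were C57BL/6, 7 to 10 weeks old, and carried ATG12 fl/fl (Atg12 with both alleles floxed). All received tamoxifen 5 times. The compared labels were CDH5 CreER negative and CDH5 CreER positive, the second carrying a Cre recombinase driven by the endothelial gene Cdh5, a cell type that the member rule keeps out. Cre-negative and Cre-positive name these labels throughout. Under each, 1 library came from mice given vehicle (acetone and olive oil), 1 from day 3 and 1 from day 7 after 4% oxazolone, a contact sensitiser, on the shaved abdomen. The labels do not say how many mice a library holds, so a difference between libraries includes differences between mice and preparations. The other fraction, which did not bind the beads, held 4 cells that met the rule, among 50017.

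In background, adventitial fibroblasts make the fibrillar and elastic matrix of the outer vessel wall and of capsules. The Pi16 and Dpp4 transcripts mark a subset of them in many organs. Cd34 is a sialomucin of the cell surface, Pi16 a secreted peptidase inhibitor and Dpp4 a surface dipeptidase. Fibroblastic reticular cells, the other large stromal class of the node, build the conduit network of the cortex and secrete the chemokines Ccl19 and Ccl21, which guide T cells and dendritic cells. Contact sensitisation enlarges the draining node within days.

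A marker outside the rule was compared with B cells and, by level, with other fibroblasts. Dpt, the matrix protein dermatopontin at chr1:164796644-164824266 (mm10), had a UMI in 87.2% to 97.1% of members per library and in 1.37% to 3.93% of B cells, which serve as the background of free RNA. Its level was 1836 and 2055 CPM in the vehicle libraries, 1494 and 1743 at day 3, and 1934 and 1726 at day 7, giving the Cre-negative library first in each pair, as in all values below. CPM are a gene's UMIs per 1000000 UMIs summed over the members of that library. In Ccl19-high fibroblasts, a class defined below and summed likewise, Dpt stood at 245 to 770 CPM. Pi16 (chr17:29317680-29330593) was detected in 44.4% to 60% of members and Dpp4 (chr2:62330073-62412231) in 32.7% to 60.6%, Cd34 (chr1:194938819-194961279) in 97.8% to 99.1%. Dpp4 also had a UMI in 12.1% to 20.3% of B cells, and Pdgfra, the receptor that marks most fibroblasts, in 81.0% to 91.2% of members.

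Markers of T, B, endothelial, myeloid and neutrophil cells were low in the members, after leaving out Cd3e, Cd79a, Pecam1 and Cdh5, which the rule sets to 0. The summed level of T-cell markers was 4.87 to 27.5 CPM, of B-cell markers 6.56 to 16.6, of endothelial markers 3.05 to 11.2, of myeloid markers 4.57 to 32.8 and of neutrophil markers 0 to 3.15. Mural markers, those of pericytes and vascular smooth muscle, summed to 79.4 to 348 CPM, and to 50.5 to 298 without Rgs5, Notch3 and Abcc9, which the rule limits. Reticular markers summed to 136 to 676 CPM, and to 110 to 614 without Ccl19, which the rule limits. Most of that was Cxcl13, at 91.2 to 602 CPM, while Ccl21a stood at 1.52 to 11.2, Il7 at 0.937 to 15.2 and Bst1 at 0 to 2.81. Plasma-cell markers, which include Igkc and the widely expressed Xbp1, summed to 209 to 322 CPM, and Schwann-cell markers to 46.1 to 70.3. The part of all these markers in the results below was not tested except where values are given. The 6 libraries held 36724887 to 70160214 UMIs, and members held a median of 4960 (day 7, Cre-negative) to 9782 UMIs per cell (day 3, Cre-positive). Any library pair shared at most 0.271% of cell barcodes, and free RNA was estimated at 0.388% to 0.930% of the members' UMIs.

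Members made up a smaller share of the gated fibroblasts in every oxazolone library than in either vehicle library. They were 405 of 1286 fibroblasts in the vehicle Cre-negative library, 31.5% (95% exact binomial interval 29.0% to 34.1%), and 348 of 1434 in the Cre-positive one, 24.3% (22.1% to 26.6%). At day 3 they were 11.1% (9.46% to 12.9%) and 9.74% (7.99% to 11.7%), from 150 and 100 members. At day 7 they were 10.7% (8.97% to 12.7%) and 13.5% (12.0% to 15.2%), from 117 and 239 members. The intervals of the 4 oxazolone libraries lay below those of both vehicle libraries and cover counting error only. The difference between treatments was not tested.

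**Figure D1:**
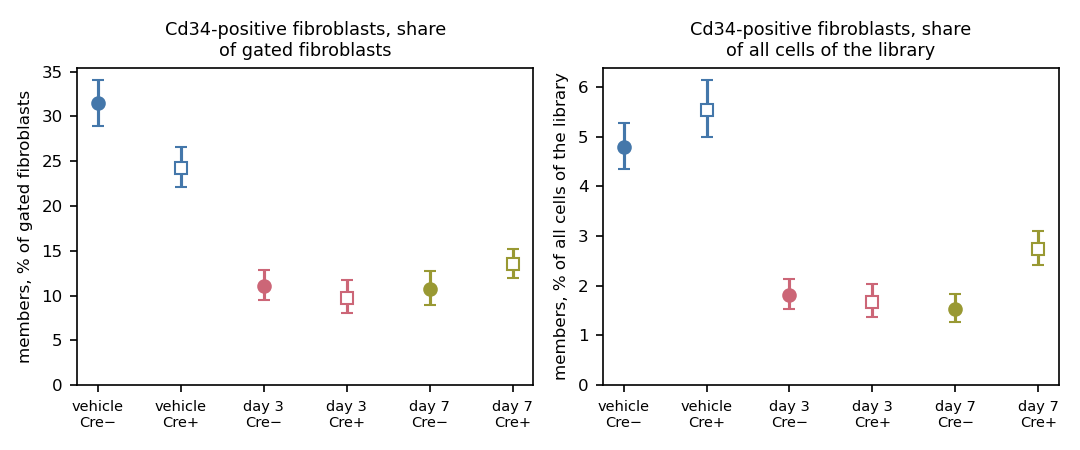
Members as a percentage of gated fibroblasts (left) and of all cells (right) in each of the 6 libraries, 1 point per library, filled for Cre-negative and open for Cre-positive, with 95% exact binomial intervals as bars. On the left the vehicle libraries stand at 31.5% and 24.3% and the 4 oxazolone libraries between 9.74% and 13.5%.

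Of all cells, members were 4.79% and 5.54% under vehicle, 1.82% and 1.67% at day 3, and 1.53% and 2.74% at day 7, while gated fibroblasts as a whole were 14.3% to 22.8% of cells in the 6 libraries. When every cell was thinned to 1000 UMIs before the rule, the shares of fibroblasts were 18.0% and 15.7%, 6.23% and 5.48%, and 6.03% and 6.56%, so the order of vehicle above oxazolone remained.

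The gated fibroblasts also held cells over the rule's limit on Rgs5, Notch3 and Abcc9. They are called mural here by those UMIs alone, and no other marker was asked for. Fibroblasts with at least 3 UMIs of Rgs5, Notch3 and Abcc9 were 43.3% and 58.2% of gated fibroblasts under vehicle, 73.5% and 82.8% at day 3, and 64.0% and 73.0% at day 7. Without them, a denominator chosen after seeing the data, members were 55.6% (51.9% to 59.2%) and 58.1% (54.0% to 62.1%) of fibroblasts under vehicle, 41.8% (36.6% to 47.1%) and 56.5% (48.9% to 63.9%) at day 3, and 29.8% (25.4% to 34.6%) and 50.2% (45.6% to 54.8%) at day 7. On that denominator both Cre-negative oxazolone libraries lay below the vehicle ones, while the interval of the day 3 Cre-positive library overlapped both vehicle intervals and that of the day 7 Cre-positive library overlapped both as well. These non-mural fibroblasts as a whole were 8.62% and 9.54% of cells under vehicle, 4.35% and 2.96% at day 3, and 5.13% and 5.46% at day 7.

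The upper limits of the rule also removed cells. With at least 2 UMIs of Cd34, Pi16 and Dpp4, the limits on Ccl19 and on mural UMIs left out 55 and 203 cells under vehicle. At day 3 they left out 95 and 135, the second more than the 100 kept in that library. At day 7 they left out 79 and 133. Of the 203 cells, 149 were over the Ccl19 limit and 173 over the mural limit, so many were over both. Of the 135 cells, these numbers were 108 and 120. Without those limits, a setting also chosen after seeing the data, the cells were 35.8% and 38.4% of gated fibroblasts under vehicle, 18.1% and 22.9% at day 3, and 18.0% and 21.1% at day 7. They were 5.44% and 8.77%, 2.97% and 3.93%, and 2.56% and 4.27% of all cells, so vehicle stood above oxazolone on both scales. The sorting step can set these shares too, which was not tested. Just inside the rule, with exactly 2 UMIs of Cd34, Pi16 and Dpp4, were 8 to 59 members per library. Just outside it, with 1 UMI, were 10 to 95 cells.

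The matrix and surface genes of the members described them against Ccl19-high fibroblasts, the reticular-like cells of the same libraries. Those 469 cells (32 to 126 per library) passed the same fibroblast gate with at least 3 Ccl19 UMIs, at most 1 of Cd34, Pi16 and Dpp4 and at most 2 mural UMIs. The rule separates the classes on measured values, so what follows is a description and carries no test. Of 9531 genes, 38.9% passed the threshold used elsewhere, 18.4% higher in members and 20.5% lower. Counts of list genes below use that threshold, stand against those shares and carry no test. Of 30 genes of the adventitial list, 29 were among the higher ones in members and 1, Il33, among the lower.

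Igfbp6 and Mfap5 were abundant in members and low in Ccl19-high fibroblasts. Igfbp6, which binds insulin-like growth factor, stood at 1446 to 2493 CPM against 20.8 to 47.5, and Mfap5, a microfibril protein, at 900.0 to 1744 CPM against 20.8 to 71.5. Opcml, a cell adhesion molecule, stood at 474 to 1350.3 CPM against 0 to 5.68, and Pla1a, a phospholipase, at 276 to 612 CPM against 0 to 2.64. In each the lowest member library was above the highest Ccl19-high library. By size of fitted difference the member side was led by Efhd1, Car8, Ptgis, Akr1c18, Fgl2, Rorb, Adamts16, Dmkn, Pcsk6 and Pla1a. All 10 reached the 20 CPM asked for only through members. The first 8 had no UMI in Ccl19-high cells, so their fitted order depends on that 0. Efhd1, a calcium-binding protein of mitochondria, was at 67.0 to 204 CPM against 0 in every Ccl19-high library, at least 135-fold higher against a floor of 3 UMIs over the pooled Ccl19-high cells. Of 14 collagens tested, 12 were higher and none lower, and of 29 matrix enzymes and inhibitors 21 were higher and none lower, beside 18.4% and 20.5% of all genes.

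Most chemokines tested were lower in members. Ccl21a stood at 1.52 to 11.2 CPM against 3713 to 9020.1, read here with the caution that near-identical Ccl21 copies can share reads. Clu, a secreted chaperone, stood at 15.1 to 91.4 CPM against 2248 to 6456, and Cxcl12, the ligand of the receptor Cxcr4, at 501 to 1210.4 CPM against 1779 to 8407. Vcam1, an adhesion molecule for lymphocytes, stood at 77.8 to 112 CPM against 572 to 933. Of 16 chemokines tested, 3 were higher and 11 lower in members, and of 45 interferon and antigen-presentation genes 9 were higher and 20 lower, beside 18.4% and 20.5% of all genes. Ccl11, the eosinophil chemokine, overlapped between the classes, at 366 to 893 CPM against 295 to 676, and so did Inmt, a methyltransferase, at 126 to 761 CPM against 58.1 to 875.

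**Figure D2:**
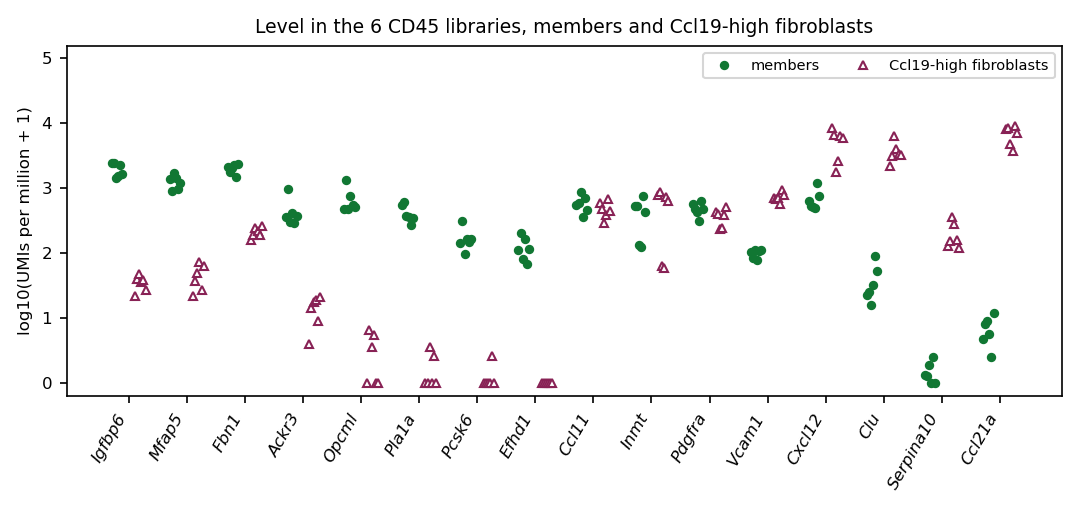
Levels as log10(CPM + 1) of 16 chosen genes in members (filled circles) and in Ccl19-high fibroblasts (open triangles), 1 point per library and class. Igfbp6, Mfap5 and Opcml lie higher in members in all 6 libraries, Ccl21a and Clu lie lower, and Inmt overlaps.

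The members themselves were not uniform. In each library 61 to 257 of them had at least 1 UMI of Pi16 or Dpp4, and 36 to 148 had none and passed on Cd34 alone. Median depth was 5280 to 10101 UMIs in the first and 4804 to 10553 in the second, with the first deeper in 5 of 6 libraries. Cells were assigned from measured Pi16 and Dpp4, so what follows describes the groups and carries no test, and no gene of the rule is counted. Summed per library and fitted within libraries by edgeR, 1767 of 9332 genes passed the threshold used elsewhere, 18.9%, with 864 higher in the Pi16/Dpp4-detected members (9.26%) and 903 lower (9.68%). Where genes of a list are counted below, higher and lower mean past that threshold, and the counts stand against those shares.

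Most genes of the adventitial list were higher in the Pi16/Dpp4-detected members. Of 30 genes on that list 26 were higher in them and 1, Gsn, lower, with a median log2 difference of 1.69 against -0.01 over all genes. Anxa3, an annexin of the membrane, was at 1063 to 1565 CPM against 53.3 to 156 in Cd34-only members (log2 difference 3.55, SE 0.16). Sema3c, a secreted guidance protein, was at 650.0 to 1132 CPM against 57.7 to 136, and Ackr3, a scavenger of Cxcl12, at 486 to 1349.5 CPM against 45.5 to 88.2, with log2 differences of 3.38 and 3.34. All 3 were higher in 6 of 6 libraries, without overlap. Cd55, which protects cells from complement, followed at 304 to 1046 CPM against 36.2 to 113 (3.26), and Fbn1, the core of elastic microfibrils, at 2184 to 3300.0 CPM against 648 to 1002 (1.81). In Cd34-only members Fbn1 was still above the 161 to 264 CPM of Ccl19-high fibroblasts, and Igfbp6, at 1769.9 to 3300.1 CPM against 700.2 to 1443 in detected against Cd34-only members, above their 20.8 to 47.5 CPM. Apoe and Des, higher in Cd34-only than in detected members, were higher still in Ccl19-high fibroblasts, at 10114 to 34716 and 435 to 894 CPM.

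By size of difference, the genes leading the detected side were Akr1c18, Adamts16, Sema3e, Rorb, Dmkn, Limch1, Chst1, Edn1, Islr2 and Car8. The same direction in every library was a condition of naming them, and all 10 reached the 20 CPM asked for only through the detected group. Akr1c18 (chr13:4132615-4150654), a steroid-metabolising aldo-keto reductase with close paralogs beside it, had 51.7 to 359 CPM against 0 in the Cd34-only members of every library, at least 182-fold higher against 3 pooled UMIs. Limch1, which binds non-muscle myosin, was at 135 to 309.7 CPM against 0 to 9.05, and Car8, a carbonic anhydrase relative, at 103 to 162 CPM against 1.29 to 8.28. Rorb, a nuclear receptor, was at 45.0 to 137 CPM against 0 to 3.31. Edn1, the vasoconstrictor endothelin, was at 37.5 to 99.4 CPM against 0 to 6.49. These genes were near 0 in members that passed on Cd34 alone.

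Signals and growth factors divided between the groups. Of 28 cytokines and growth factors, 6 were higher in Pi16/Dpp4-detected members and 14 lower, beside 9.26% and 9.68% of all genes. Fgf2 was at 91.3 to 174 CPM against 10.5 to 29.1 (2.42 on the log2 scale), Bmp7 at 19.98 to 63.0 CPM against 0 to 1.05, and Ptgs2, the inducible prostaglandin synthase, at 45.1 to 415 CPM against 7.25 to 58.8 (2.34). Lower were Gas6, the ligand of the Axl receptor, at 94.7 to 281 CPM against 245 to 907 (-1.56), and Igf1 at 178 to 521 CPM against 389 to 584 (-0.79). Cxcl12 (chr6:117168535-117181367) was at 162 to 313 CPM against 823 to 2265 (log2 difference -2.49, SE 0.19), lower in 6 of 6 libraries.

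Most collagens, and a part of the lipid and antigen-presentation genes, were higher in Cd34-only members, against 9.68% of all genes. Of 14 collagens, 10 were higher in them and 2 lower: Col4a2 was at 144 to 366 CPM against 459 to 789.9 and Col15a1 at 49.7 to 239.7 CPM against 374 to 688 in detected against Cd34-only members, while Col14a1 went the other way at 515 to 1096 CPM against 202 to 504. Of 17 lipid genes, 8 were higher in Cd34-only members and 2 lower, with Apoe (chr7:19696109-19699188), the lipid carrier, at 302 to 2021 CPM against 2244 to 7382 (log2 difference -2.45, SE 0.27) and Lpl, lipoprotein lipase, at 467 to 1438 CPM against 1277 to 2825. Of 45 interferon and antigen-presentation genes, 16 were higher in Cd34-only members and 1 lower. The class II genes Cd74 and H2-Aa were not among them, at 4.58 to 165 CPM against 9.93 to 38.8 and 2.82 to 103 CPM against 2.16 to 14.5, which overlap. Among the 16, H2-D1 was at 565 to 878 CPM against 785 to 1174 (-0.47), and class I genes are near-identical copies whose reads can be split.

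The genes leading the Cd34-only side by size were Csf2rb, Ano1, Des, Igfbp3, Ccbe1, Fabp4, Ptn, Ifitm1, Adamts17 and Tmem176b. All but Fabp4 were higher in Ccl19-high fibroblasts than in members in 6 of 6 libraries, with Csf2rb at 362 to 599 CPM and Ifitm1 at 952 to 2251 CPM there. Des, the muscle-type filament desmin, was at 2.14 to 16.9 CPM against 48.6 to 129 (-3.58). Csf2rb, a cytokine receptor chain with a near-identical copy in the mouse, was at 0 to 7.58 CPM against 36.8 to 79.5, and Igfbp3 (chr11:7206086-7213923) at 15.4 to 53.3 CPM against 34.6 to 838. Mural markers without Rgs5, Notch3 and Abcc9, a list that includes Des, summed to 6.85 to 246 CPM in detected members and 84.9 to 557 in Cd34-only members. Reticular markers without Ccl19, which the rule limits, summed to 129 to 631 and 67.8 to 609, which overlap. Cxcl13, one of them, stood at 119 to 623 and 38.8 to 580 CPM. Mesothelial markers summed to 19.7 to 67.6 and 1.29 to 15.2, which do not overlap. Over all members, Krt19 and Wt1 had UMIs in all 6 libraries and Msln and Lrrn4 in none. Krt8 had UMIs in the day 3 Cre-negative library and Upk3b in the day 7 Cre-positive one. The part of these cells in the split was not tested.

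**Figure D3:**
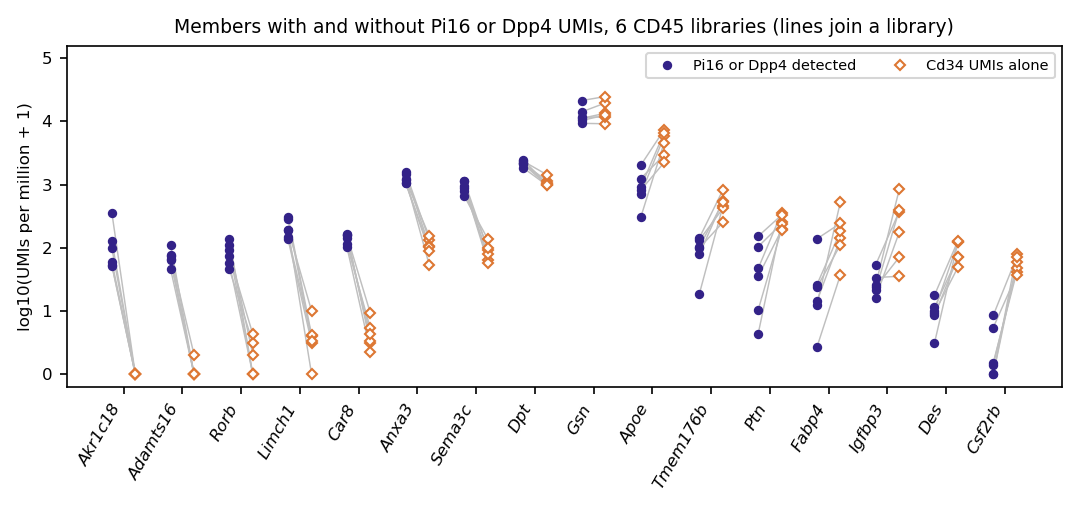
Levels as log10(CPM + 1) of 16 chosen genes in members with a Pi16 or Dpp4 UMI (filled circles) and in Cd34-only members (open diamonds), with a line joining the groups of each library. Akr1c18, Anxa3 and Sema3c lie higher in the detected group in all 6 libraries and Apoe, Des and Csf2rb lie lower.

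Autophagy, folding and immediate-early genes were counted between the groups in the same way. None of 27 autophagy genes passed the threshold in either direction, and Atg12, the floxed gene, was at 19.5 to 29.0 CPM against 16.6 to 34.6. Of 26 genes of endoplasmic reticulum folding 2 were higher, near the 9.26% of all genes, and 0 lower, beside 9.68%. Of 30 immediate-early genes, which dissociation and stress induce within minutes, 13 were lower in detected members and 1, Klf4, higher. Over all genes 9.68% were lower and 9.26% higher. Thinning each cell to 1000 UMIs left 2431 genes that could be tested, of which 556 passed the threshold, and DESeq2 called 1153 of 9332.

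Within the members as a whole, no gene passed the threshold between treatments. The comparison used 1 sum per library, an additive model of Cre label and treatment, and 2 residual degrees of freedom. At day 3 against vehicle 0 of 10701 genes were called (0%) by edgeR with Benjamini-Hochberg adjustment, 1210 had an unadjusted p under 0.05, and DESeq2 called 7 higher and 48 lower. In simulated data of the same size, 90% of 4-fold changes and 34% of 2-fold changes were recovered, so many 2-fold differences would be missed. Those data held the planted change alone, without a Cre or day 7 effect, and a spread taken from the fitted model. Recovery in the real libraries can be lower. Inmt and Tagln, described below, differed by more than 4-fold in the real fit and were not called. The changes were planted in better-counted genes only, so recovery among genes with few counts was not measured. Leaving out a library changed the count to 129 without the vehicle Cre-negative, 6 without the vehicle Cre-positive, 11 without the day 3 Cre-negative, 36 without the day 3 Cre-positive and 3 without the day 7 Cre-positive library. The genes described next were chosen after their values were seen, as the largest or most abundant, and day 3 and day 7 share the vehicle libraries.

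Inmt (chr6:55170626-55175043), which methylates small amines, stood lowest at day 3. It was at 534 and 540.4 CPM in the vehicle libraries, 134 and 126 at day 3, and 761 and 437 at day 7, and a UMI was found in 64.9% and 77.9% of vehicle members, 34.7% and 35.0% at day 3 and 68.4% and 67.4% at day 7. Both day 3 libraries were below all 4 others. The log2 difference of day 3 from vehicle was -2.16 (SE 0.24; edgeR adjusted p = 0.113), of the same sign in 17 of 17 alternative settings. Ccl19-high fibroblasts of the same libraries had 783 and 875, 62.0 and 58.1, and 735 and 637 CPM.

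Cebpd, Fosb and Txnip were also lowest at day 3 within each Cre label. Cebpd (chr16:15887286-15891031), a factor of acute-phase and fat-cell genes, was at 497 and 667 CPM in the vehicle libraries, 212 and 262 at day 3, and 438 and 545 at day 7, a day 3 difference of -1.40 (SE 0.17; edgeR adjusted p = 0.113). Fosb (chr7:19302696-19310051), an immediate-early factor, was at 647 and 1286 CPM in the vehicle libraries, 241 and 563 at day 3, and 417 and 896 at day 7, with -1.42 (SE 0.17; edgeR adjusted p = 0.113). Txnip, a thioredoxin inhibitor, was at 712 and 469 CPM in the vehicle libraries, 225 and 215 at day 3, and 743 and 458 at day 7. Of 30 immediate-early genes, 19 were lower at day 3 under both Cre labels and 2 higher, with a median of -0.70; over all genes tested 21.6% were lower and 37.4% higher under both labels. At day 7, 22 of the 30 were lower under both labels and 1 higher, with a median of -0.36, while over all genes 23.4% were lower and 22.9% higher. Directions under each label, here and below, were read from CPM without the library scaling (TMM) of the fit, and had to match the fitted sign. The TMM factors were 0.966 and 0.978 under vehicle and 1.05 and 1.05 at day 3. Day 3 CPM therefore stand higher against vehicle than in the fit, where 50.5% of all genes were above 0 at day 3.

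Tagln and Acta2 stood highest at day 3, in few cells. Tagln (chr9:45929619-45936058), an actin-binding protein of smooth muscle and myofibroblasts, was at 9.79 and 6.09 CPM in the vehicle libraries, 109.9 and 69.3 at day 3, and 1.52 and 5.39 at day 7 (3.37 (SE 0.34; edgeR adjusted p = 0.109) for day 3). It was found in 23 of 150 and 10 of 100 day 3 members, and the 5 richest cells held 68.5% and 90.5% of its UMIs. Acta2, smooth-muscle actin, was at 22.4 and 1.83 CPM in the vehicle libraries, 86.0 and 154 at day 3, and 3.05 and 8.54 at day 7 (3.34 (SE 0.79; edgeR adjusted p = 0.264)). Both day 3 libraries were above all others for each gene.

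Members with no UMI of Rgs5, Notch3 or Abcc9, a restriction chosen after seeing the data, had Tagln at 9.97 and 4.17, 75.6 and 9.93, and 0 and 4.91 CPM in the same order, a day 3 log2 difference of 2.32 (edgeR adjusted p = 0.431). The same members had Acta2 at 24.5 and 0.38, 42.9 and 49.7, and 2.19 and 3.51 CPM. Over all members, the other 9 mural markers summed to 83.9 and 71.5 CPM under vehicle. They include Rgs5, Notch3 and Abcc9, which the rule limits to 2 UMIs per cell, so the sums are limited too. Their sums were 84.2 and 125 at day 3 and 148 and 102 at day 7. Of these 9, 7 had a UMI in each day 3 library, while Mcam and Cnn1 had none there or in the day 7 Cre-negative library. Of the 17 myofibroblast genes tested, 14 had a day 3 difference above 0 and 13 were higher under both Cre labels, with a median of 1.03 against 0.01 over all genes. The most abundant, Postn, Ccn1 and Fap, had differences of 0.30, -0.33 and -0.11. None of the 17 passed the test.

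**Figure D4:**
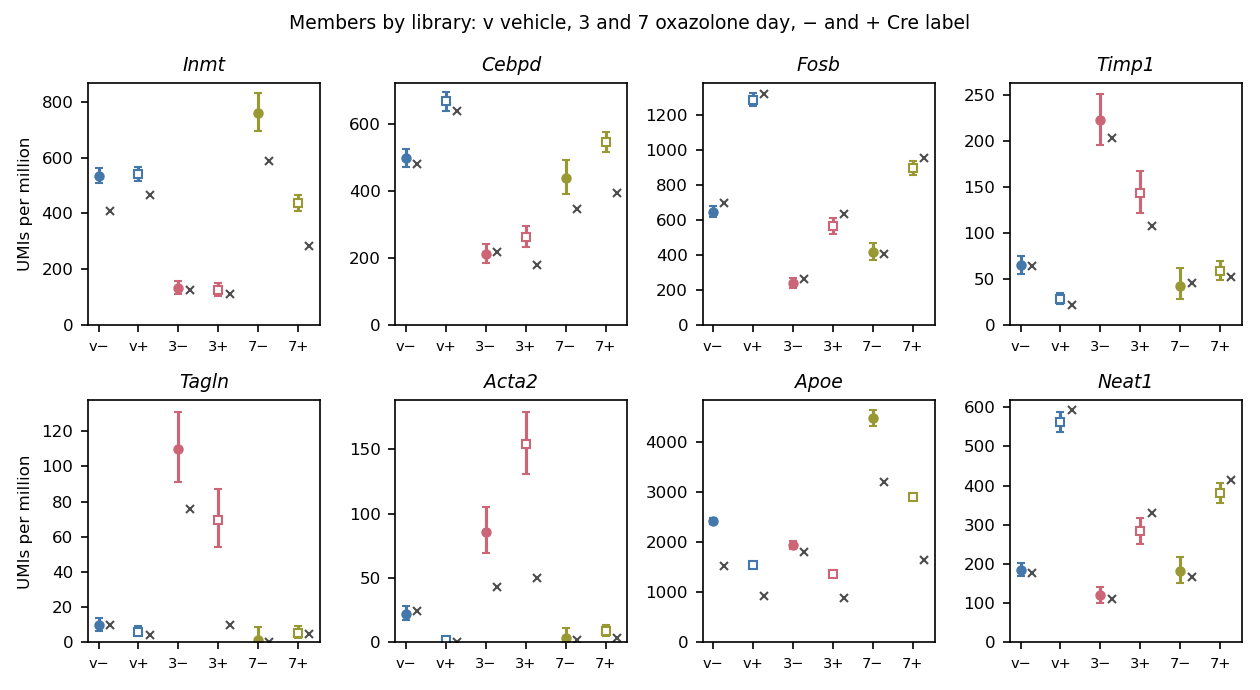
Levels in members, in CPM, of 8 chosen genes in the vehicle (v), day 3 and day 7 libraries of each Cre label (− and +), with 95% exact Poisson intervals as bars and crosses for members without an Rgs5, Notch3 or Abcc9 UMI. Inmt is lowest and Tagln highest at day 3 under both labels, and the Tagln crosses at day 3 stand at 75.6 and 9.93 CPM.

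Timp1 (chrX:20870166-20874735), which blocks matrix metalloproteases, was at 65.0 and 28.6 CPM in the vehicle libraries, 223 and 143 at day 3, and 42.6 and 58.4 at day 7 (1.89 (SE 0.32; edgeR adjusted p = 0.192) for day 3). Both day 3 libraries stood above the other 4. In Ccl19-high fibroblasts Timp1 was at 11.9 and 11.4, 220.1 and 210.0, and 37.6 and 31.1 CPM. Cxcl1, a neutrophil chemokine, was at 287 and 434 CPM in the vehicle libraries, 152 and 152 at day 3, and 158 and 280.5 at day 7. Timp2, the constitutive inhibitor, had a day 3 difference of -0.80 and Gsn, gelsolin, one of -0.52. Of 30 adventitial genes, 18 were lower and 3 higher at day 3 under both labels, with a median of -0.48, while over all genes 21.6% were lower and 37.4% higher.

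Most folding and cell-cycle genes tested had day 3 differences above 0. Over all genes 50.5% were above 0 and 37.4% higher under both labels. Of 26 endoplasmic reticulum folding genes, 22 were above 0 and 21 higher under both labels, with a median of 0.46; Hspa5, the main chaperone of the compartment, was at 546 and 620.1 CPM in the vehicle libraries, 1055 and 852 at day 3, and 557 and 464 at day 7 (0.59). Of 39 cell-cycle genes 14 passed the filter on low counts, and 13 of these were above 0, with a median of 0.55. Tubb5, a tubulin, was at 203 and 193 CPM in the vehicle libraries, 466 and 340.1 at day 3, and 228 and 163 at day 7 (0.89). Mki67, the proliferation antigen, had a UMI in 0.247% and 0% of vehicle members. The share was 0.667% and 5.00% at day 3 and 0% and 0.837% at day 7. These values are at or below the B-cell share in all but the day 3 Cre-positive library (1.83% of B cells). B cells can divide, with Mki67 in up to 7.08% of them, so for this gene they are not a background of free RNA. None of these genes passed the test.

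The median collagen difference at day 3 was small, while Col1a1 moved in opposite directions under the Cre labels. Of 15 collagens, 11 had a day 3 difference above 0, with a median of 0.10, and none was lower under both labels. Col1a1 was at 7449 and 3500.0 CPM in the vehicle libraries, 4779 and 5553 at day 3, and 4470.1 and 8446 at day 7 (-0.20 at day 3). Its values overlapped between treatments, and so did those of Sparc, the collagen-binding glycoprotein, at 6739 and 3611 CPM in the vehicle libraries, 4954 and 5707 at day 3, and 4330.0 and 9059 at day 7. Of 13 complement genes 2 were above 0 at day 3, with a median of -0.38. C3, the central component, was at 2503 and 3306 CPM in the vehicle libraries, 2048 and 2779 at day 3, and 3992 and 2672 at day 7. Of 19 NF-kB targets, 5 were above 0, with a median of -0.48.

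**Figure D5:**
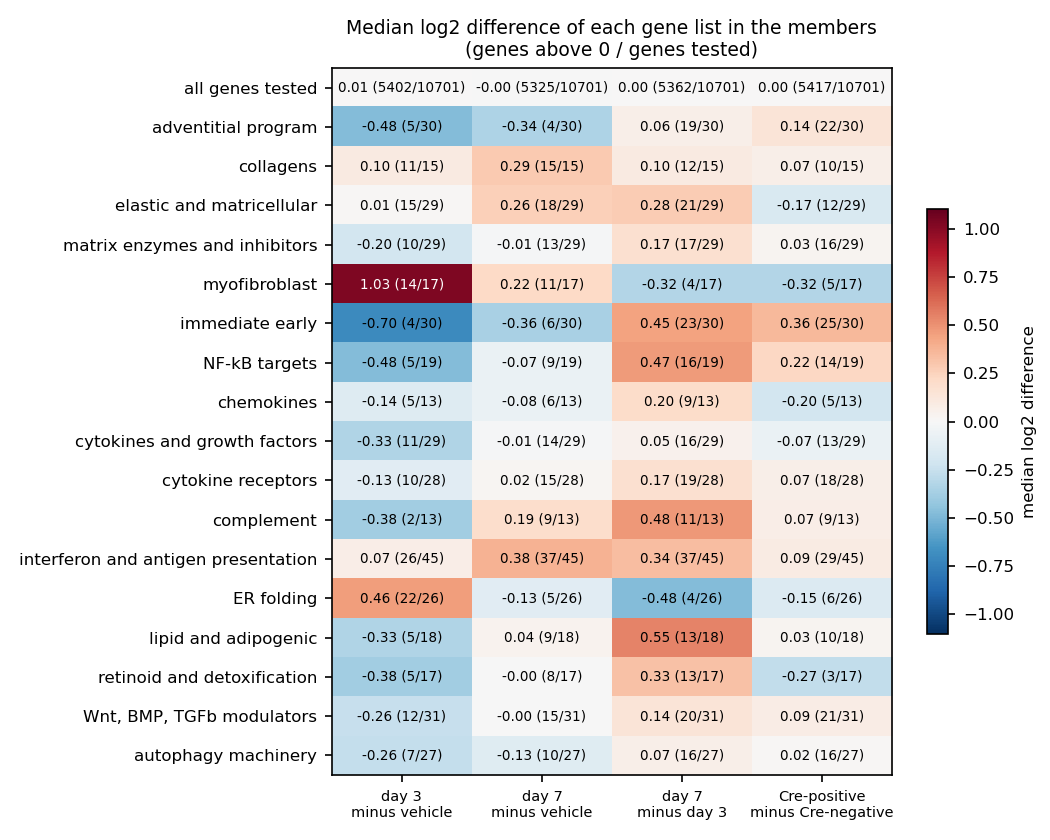
Median log2 difference over the tested genes of each list, in members, for the 3 treatment comparisons and the Cre label. The myofibroblast list stands at 1.03 and the immediate-early list at -0.70 at day 3, all genes at 0.01, and no gene of any list passed the test.

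At day 7 against vehicle edgeR again called 0 of 10701 genes (0%), with 427 at an unadjusted p under 0.05 and 0 by DESeq2. Without the vehicle Cre-negative library the count was 100, without the day 3 Cre-negative library 9 and without the day 3 Cre-positive library 10. Apoe was at 2422 and 1557 CPM in the vehicle libraries, 1942 and 1368 at day 3, and 4485 and 2907 at day 7, a day 7 difference of 0.89 (SE 0.17; edgeR adjusted p = 0.918), and both day 7 libraries stood above all others. Cxcl12 was at 636 and 533 CPM in the vehicle libraries, 516 and 501 at day 3, and 1210.4 and 769 at day 7 (0.73 (SE 0.20; edgeR adjusted p = 1)), also highest in both day 7 libraries. Both genes were higher in Cd34-only members, which made up 36.5% and 34.8% of members under vehicle, 42.7% and 36.0% at day 3 and 47.9% and 39.7% at day 7; the part of that make-up in these values was not tested.

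Other day 7 values concerned lymphocyte factors and antigen presentation. Tnfsf13b, the B-cell survival factor BAFF, was at 26.2 and 27.1 CPM in the vehicle libraries, 20.4 and 23.4 at day 3, and 79.2 and 40.9 at day 7 (1.06 (SE 0.30; edgeR adjusted p = 1)). Bst2, an interferon-induced surface protein, was at 245 and 165 CPM in the vehicle libraries, 277 and 247 at day 3, and 312 and 341 at day 7 (0.69). Both stood highest in the day 7 libraries. Tnfsf13b was also lower in Pi16/Dpp4-detected than in Cd34-only members (log2 difference -0.87), and the part of that make-up was not tested. Of 45 interferon and antigen-presentation genes, 37 had a day 7 difference above 0 and 20 were higher under both labels, with a median of 0.38 against -0.00 over all genes, of which 22.9% were higher and 23.4% lower under both labels. H2-K1, a class I heavy chain, was at 604 and 563 CPM in the vehicle libraries, 619.6 and 629 at day 3, and 702 and 903 at day 7 (0.45). None passed the test.

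Cd55 was at 329 and 765 CPM in the vehicle libraries, 457 and 526 at day 3, and 189 and 283 at day 7 (-1.16 (SE 0.25; edgeR adjusted p = 1)), and both day 7 libraries stood below the other 4. Bmp7, a bone morphogenetic protein, was at 39.2 and 45.0 CPM in the vehicle libraries, 14.2 and 26.2 at day 3, and 15.2 and 13.0 at day 7 (-1.67 (SE 0.32; edgeR adjusted p = 0.918)). Both vehicle libraries were above all others, and day 3 was low as well. Of 30 adventitial genes, 13 were lower and 1 higher at day 7 under both labels, with a median of -0.34, while over all genes 23.4% were lower and 22.9% higher. Cd55, Bmp7 and most adventitial genes were higher in Pi16/Dpp4-detected members. The part of the make-up of the members, given above, in these values was not tested. All 15 collagens had a day 7 difference above 0, with a median of 0.29, of which 6 were higher under both labels. Pparg, the fat-cell regulator, was at 15.0 and 23.1 CPM in the vehicle libraries, 32.8 and 45.9 at day 3, and 51.8 and 44.1 at day 7 (1.28).

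Between day 7 and day 3, 0 of 10701 genes were called (0%), 1144 had an unadjusted p under 0.05 and DESeq2 called 27 higher and 8 lower. Without the vehicle Cre-negative, vehicle Cre-positive, day 3 Cre-negative, day 3 Cre-positive or day 7 Cre-positive library the edgeR count was 54, 51, 2, 66 and 3. Inmt had a difference of 2.27 (SE 0.25; edgeR adjusted p = 0.103) and Tagln one of -4.10 (SE 0.42; edgeR adjusted p = 0.103). Apoe had 1.25 (SE 0.18; edgeR adjusted p = 0.125). These are the day 3 and day 7 values given above, and they share the day 3 libraries with the comparison against vehicle.

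The Cre label marks an endothelial recombinase, and the members have no Pecam1 or Cdh5 UMI by the rule. Between the labels 0 of 10701 genes were called (0%), 1148 had an unadjusted p under 0.05, and DESeq2 called 26 higher and 3 lower in the Cre-positive libraries. Without the day 3 Cre-negative, day 3 Cre-positive or day 7 Cre-positive library the edgeR count was 21, 23 and 1. Atg12 was at 24.8 against 24.6 CPM under vehicle, 25.7 against 30.9 at day 3 and 19.8 against 23.8 at day 7, Cre-negative against Cre-positive, with a log2 difference of 0.13 (SE 0.22; edgeR adjusted p = 0.898). The recombinase is endothelial, so Atg12 in fibroblasts does not check the deletion.

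Neat1, Zbtb16 and Gfpt2 had the higher value with Cre under all 3 treatments, and none passed the test. Neat1 (chr19:5824708-5845478), a long non-coding RNA of nuclear paraspeckles, was at 185 against 562 CPM under vehicle, 119.7 against 283 at day 3 and 183 against 381 at day 7 (1.30 (SE 0.16; edgeR adjusted p = 0.257)). Zbtb16, a zinc-finger repressor, was at 61.2 against 138 CPM under vehicle, 26.6 against 70.3 at day 3 and 48.7 against 255 at day 7 (1.59 (SE 0.24; edgeR adjusted p = 0.257)), and Gfpt2, the entry enzyme of hexosamine synthesis, at 386 against 1179 CPM under vehicle, 287 against 596 at day 3 and 308 against 525 at day 7 (1.14 (SE 0.19; edgeR adjusted p = 0.257)). Egfr, the epidermal growth factor receptor, was at 446 against 1373 CPM under vehicle, 459 against 557 at day 3 and 472 against 855 at day 7 (0.91), and Il6 at 43.3 against 137 CPM under vehicle, 39.9 against 54.3 at day 3 and 27.4 against 49.4 at day 7 (1.08).

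Depth moved with the label. Median UMIs per member were 6877 against 8738 under vehicle, 7036 against 9782 at day 3 and 4960 against 9207 at day 7, higher with Cre each time, and its part in these differences was not tested. The Y-linked Ddx3y stood at 18.9 against 112 CPM under vehicle, 9.75 against 39.3 at day 3 and 9.14 against 14.8 at day 7; the part of the mice's sex was not tested. Of 30 immediate-early genes 25 had a difference above 0, with a median of 0.36, and 14 were higher in all 3 pairs. Over all genes 50.6% were above 0 and 18.5% higher in all 3 pairs.

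Whether oxazolone moved the members differently from Ccl19-high fibroblasts was tested directly. At day 3 edgeR called 0 of 9531 genes (0%) for that difference, with 886 at an unadjusted p under 0.05 and 1 by DESeq2. At day 7 it called 0 of 9531 (0%), with 404 and 0. Each of the 6 libraries left out in turn gave calls at day 3, from 9 without the vehicle Cre-negative to 205 without the day 7 Cre-negative library. At day 7 the count was 51 without the day 3 Cre-negative, 24 without the day 3 Cre-positive, 59 without the day 7 Cre-negative and 0 without each of the others. Simulated 4-fold differences of this kind, planted in better-counted genes, were recovered in 64% of genes and 2-fold ones in 8.08%. A missing call therefore does not show that the classes responded alike.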

How the data were processed

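Single-cell RNA of mouse lymph node was read in 12 libraries, 1 per group, with a 10x 3-prime kit of V2 barcoding chemistry, per the labels. Files hold UMI counts per gene and barcode as the authors deposited them; reads were mapped to mm10 with Cell Ranger 7.0.1, per the submitters' processing notes, though a matrix header names another release. Annotation, strand use and cell calling are not given in the sources used here. Coordinates come from GENCODE mouse release M21 (99.8% of 32285 gene IDs matched).

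Cells were filtered and members chosen by the rule given above, in Python 3.11.15. UMIs of members were summed per library, and directions within pairs of libraries were read from CPM before TMM scaling. Sums were fitted with edgeR 4.0.16 (TMM, quasi-likelihood F test, low counts filtered by filterByExpr, Benjamini-Hochberg at 0.05), with Cre label and treatment as terms, or with the library as a block for the comparisons of cell classes. Groups have 1 library each, so p-values measure the spread left after the additive model. The 15 genes of the rules were left out of counts and naming. Doublets were left in; Scrublet's automatic threshold marked only 3 of 8262 cells of the day 3 Cre-negative library, so removing the cells with the highest scores, 0.8% for each 1000 cells of a library, was an alternative.

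Genes were named as the 10 with the largest difference in each direction among those averaging at least 20 CPM, past the threshold and moving the same way in every library; in lists with no call, the most abundant. The members and lists were chosen with earlier results of these data known. On simulated data the fits of members against Ccl19-high fibroblasts and of the Pi16/Dpp4 split recovered 100% of 4-fold differences. The fit of the day 3 class difference recovered 64%. In each simulation the changes were planted in better-counted genes only, with no other difference between groups, so recovery in the real data can be lower. Alternatives were DESeq2 1.42.0, RLE scaling, no filter, other gates, thinning, removal of free RNA and leaving out each library. Antisense partners cannot be told apart where strand is unknown.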

Additional observations from a re-analysis of the deposited data

Results flagged for a closer look

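In 6 cases a gene moved in opposite directions, by at least 2-fold and beyond its 95% counting intervals, under the Cre labels; the difference was not tested in any of them. Acta2 at day 7 had log2 changes from vehicle of -2.88 in Cre-negative and 2.23 in Cre-positive members, a difference of -5.10. Its day 7 Cre-negative and vehicle Cre-positive values rest on few UMIs. Postn, a matricellular protein, at day 7 had -1.15 and 1.39, a difference of -2.54. Cd74, the invariant chain of class II antigen presentation, at day 7 had -1.65 and 3.39, a difference of -5.04, and 206 of its UMIs in the day 7 Cre-positive library came from 1 cell. Cxcl13, the B-cell chemokine, at day 7 had 1.44 and -2.72, a difference of 4.16. Ccl7, a monocyte chemokine, at day 3 had 1.73 and -1.02, a difference of 2.75, and 1 cell held 144 of its UMIs in the day 3 Cre-negative library. Fabp4, a fatty-acid carrier, at day 3 had -1.53 and 2.27, a difference of -3.80, and 1 vehicle Cre-negative cell held 231 of its UMIs.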

How the results depend on the processing

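Among values of single genes, 20790 were counted as unchanged under an alternative, 612 gained a call, 101 lost it and no called value changed sign. Uncalled values that changed sign count as unchanged, and most comparisons called no gene in the main fit. Of the main counts and shares, 101 stayed close to their value under an alternative and 70 moved. Without the low-count filter edgeR called 500, 140, 328 and 244 genes for day 3, day 7, day 7 against day 3 and the Cre label, and 130 and 40 for the class differences of day 3 and day 7. DESeq2 called 55, 35 and 29 genes for day 3, day 7 against day 3 and the Cre label, 1153 for the Pi16/Dpp4 split and 1 for the day 3 class difference. Thinning cells to 1000 UMIs gave 1 gene for day 3, 3 for day 7 against day 3, 1069 for members against Ccl19-high fibroblasts, 556 for the split and 4 for the day 3 class difference, and shares of 18.0%, 15.7%, 6.23%, 5.48%, 6.03% and 6.56%. Over fibroblasts with at most 2 mural UMIs, a choice made after seeing the data, the shares were 55.6%, 58.1%, 41.8%, 56.5%, 29.8% and 50.2%. Without the limits on Ccl19 and mural UMIs, chosen likewise, they were 35.8%, 38.4%, 18.1%, 22.9%, 18.0% and 21.1%. A gate of at least 3 Cd34, Pi16 and Dpp4 UMIs gave 2 genes for day 3, 1 for day 7 against day 3 and 7 for the day 3 class difference. For that class difference RLE scaling, at most 5% mitochondrial UMIs and removal of free RNA gave 1 each, and removing the highest doublet scores 28, with 2 at day 7. Members with no Rgs5, Notch3 or Abcc9 UMI, chosen after seeing the data, gave 1655 genes against Ccl19-high fibroblasts, 28 for the day 3 and 7 for the day 7 class difference. Leaving out 1 library at a time gave 0 to 129 genes for day 3, 0 to 100 for day 7, 0 to 66 for day 7 against day 3, 0 to 23 for the Cre label, 9 to 205 for the day 3 and 0 to 59 for the day 7 class difference; a lone library is then assumed to vary like the rest. The cause of these differences was not tested. No paired analysis was possible because the labels give no replicate numbers and each group has 1 library; the Cre label as a term, and the library as a block between cell classes, were already in the fits.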

Other observations

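For 2 genes chosen after seeing their values, single cells held a large part of the UMIs. Ccl2, a monocyte chemokine, stood at 855 CPM in the day 3 Cre-negative library, where 1 cell held 358 of its 964 UMIs, and between 18.3 and 168 CPM in the other 5 libraries. Saa3, an acute-phase protein, had 28 UMIs at day 3 and 79 at day 7 in the Cre-positive libraries, of which 1 cell each held 27 and 74. Ptgs2, the inducible prostaglandin synthase, was spread more widely in the vehicle Cre-positive library, with a UMI in 37.1% of members and 312 CPM against 28.9 to 60.5 CPM elsewhere.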
